A study of Mus musculus with 16 samples.

Results

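Transcripts of 9 genes that take bile acids up into hepatocytes and conjugate them were followed in the livers of WT mice and of mice lacking Lcn2, with and without repeated CCl4 injury. The 9 genes are the uptake transporters Slc10a1, Slco1a1, Slco1a4, Slco1b2 and Slco2b1, the nuclear receptor Nr1h4 (FXR) with its target Nr0b2 (SHP), and the conjugating enzymes Baat and Slc27a5. They were chosen by symbol, with earlier results of these data known, and each was read from the probe with the highest mean signal over all arrays. All 9 were among the 24363 genes tested, and the 12 probes of these genes were well above background on all 16 arrays.

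The arrays came from livers of male BALB/c mice, an inbred strain, whose treatment began at 6 to 8 weeks of age. There were 4 WT control arrays, 3 Lcn2-/- control arrays, 5 WT CCl4 arrays and 4 Lcn2-/- CCl4 arrays. CCl4, a solvent that hepatocytes turn into a toxic radical, was injected into the peritoneum in corn oil at 0.5 ml/kg, 2 times a week for 4 weeks, and livers were taken 48 hours after the last dose. Controls received corn oil according to the study's methods. Lcn2-/- mice lack the gene of lipocalin 2, a secreted iron-siderophore binding protein. Per the study's methods the line was made on a mixed background of other strains and then crossed back repeatedly to BALB/c, so DNA of the founder strains can remain around the Lcn2 locus. The labels number the samples of a group without saying that each is a separate animal, so p-values measure the spread between these samples.

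Bile acids are made from cholesterol in hepatocytes, joined to taurine or glycine, secreted into bile and reabsorbed in the ileum. From portal blood they return to the hepatocyte through the sodium-dependent carrier NTCP, the product of Slc10a1, and through sodium-independent organic anion transporters of the Slco family. Inside the cell they bind FXR, which induces SHP, a corepressor that lowers bile acid synthesis, while bile acyl-CoA synthetase (Slc27a5) and the amino acid transferase BAAT re-conjugate what returns.

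Between 51.6% and 60.9% of gene spots were well above background on an array. On the Lcn2 probe the log2 difference of Lcn2-/- from WT was −4.15 in controls (adjusted p = 0.0215, limma) and −3.33 under CCl4 (adjusted p = 0.0394), with no overlap between genotypes. WT control replicate 3 and Lcn2-/- control replicate 3 stood apart from the other controls. On a scale from 0 at the control mean to 1 at the CCl4 mean of their genotype they lay at 0.46 and 0.36. The other 5 controls lay at −0.16 to 0.042. Each position is a median over genes that responded to CCl4 in that genotype, fitted without the array placed. These genes had an adjusted p under 0.05 and a log2 difference of at least 1 either way. All controls and WT CCl4 replicate 1 shared 1 slide, and the other CCl4 arrays were on the other slide. Of 10 hepatocyte markers, 0 changed past the threshold in either genotype, and the log2 of their summed signal lay between 21.71 and 21.96 on all arrays. The dimmest of the 10 had 544 of 55560 probes above it, and quantile normalization leaves such bright probes little room to differ. With each array scaled by its 75th percentile instead, a check added after seeing the data, 3 of the 10 were lower in WT and 0 in Lcn2-/-, with median differences of −0.48 and −0.49.

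The probe sequences matter for Slc10a1, because its 2 probes did not measure alike. Stretches of 30 bases from each are shown, 5′ to 3′, with capitals on bases that lie in a run of at least 15 bases shared with a probe of another gene.
Slc10a1, brighter probe, bases 1 to 30: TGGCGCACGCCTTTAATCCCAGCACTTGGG
Slc10a1, dimmer probe, bases 1 to 30: cctacaaaggcattatgttatcactcgtca

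The brighter probe (chr12:82056539-82056598, mm9, minus strand) has the wording of B1, a short interspersed repeat found in many mouse transcripts. It shared such runs with 13 of the 55679 probes of other genes, covering 43 of its 60 bases, and with 68 of 32851 RefSeq promoter windows. The dimmer probe (chr12:82061470-82061529, mm9, minus strand) shared none with another probe and 1 promoter window. No other of the 12 probes shared a run with more than 2 probes of other genes. The 3 features whose deviations from the group means were most like those of the brighter probe were 2 transcripts with no gene name (r = 0.955 and 0.873 over 16 arrays) and Rn4.5s, a small RNA (r = 0.907). The most alike of them, at 0.955, shared no such run with the brighter probe, and the other 2 shared a run of 15 bases. Between the 2 Slc10a1 probes the correlation of deviations was 0.09, against 0.54 for the pair of Slc27a5 probes and 0.93 for the pair of Slco2b1 probes, whose sequences overlap on the genome. Counts over the 9 genes use the brighter probe, as the rule chose it, and the text on Slc10a1 gives the dimmer probe first, a choice made after these values were seen.

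The first question was whether chronic CCl4 altered these genes in WT liver. Slco1a1 fell. Of the 9 genes 1 changed past the threshold, an adjusted p under 0.05, and 8 did not. Across all genes tested 16.7% passed in this comparison, so 1 of 9 was near the background. The median difference of the 9 genes was −0.15, against −0.03 for all genes. In Lcn2-/- liver again 1 of 9 changed, Slco1a1, where 12.1% of all genes passed, and the median of the 9 was 0.00 against −0.023 for all genes.

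**Figure D1:**
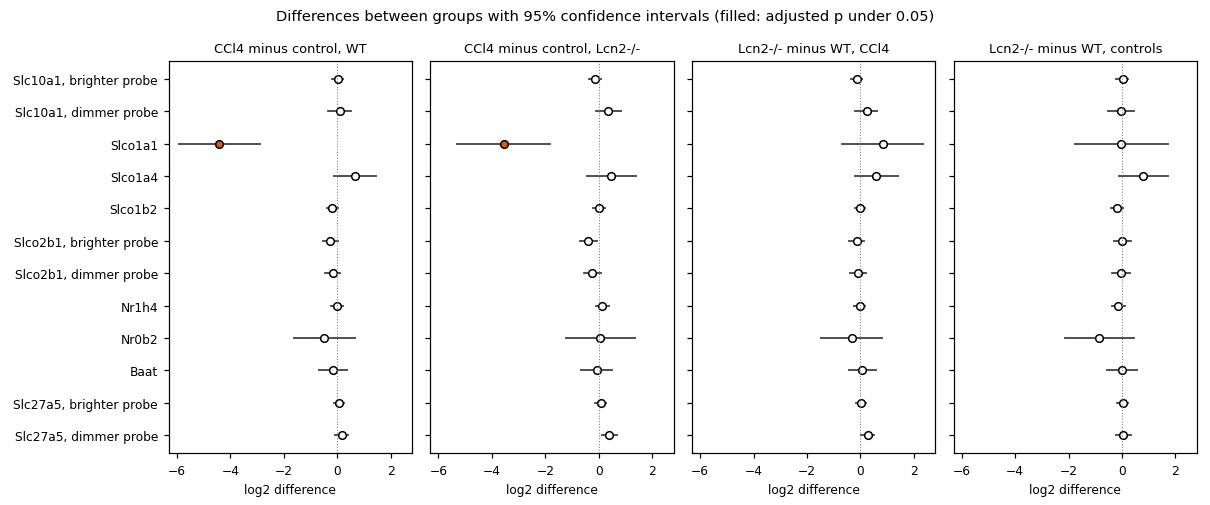
Log2 difference between groups (points) with its 95% confidence interval (lines) for the 12 probes of the 9 genes, in 4 comparisons, from the fit over probes. Filled points have an adjusted p under 0.05: Slco1a1 at −4.42 in WT and −3.56 in Lcn2-/-, while every other point is open.

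Slco1a1 encodes OATP1A1, a sinusoidal transporter of bile acids and steroid conjugates known to be more abundant in male than in female mouse liver. Its probe lies at chr6:141856493-141856552 (mm9, minus strand). Normalized log2 intensity was 15.39, 15.34, 14.59 and 15.16 on the WT control arrays and 9.39, 10.71, 12.85, 10.20 and 10.38 on the WT CCl4 arrays. It was 15.25, 15.45 and 14.61 on the Lcn2-/- control arrays and 9.53, 10.86, 12.82 and 12.97 on the Lcn2-/- CCl4 arrays. Every CCl4 array was below every control array in both genotypes. The controls were close together and the CCl4 arrays were not, since WT CCl4 replicate 3 and Lcn2-/- CCl4 replicates 3 and 4 lay between 12.82 and 12.97 and the others between 9.39 and 10.86.

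In WT the mean fell from 15.12 ± 0.367 (SD, n = 4) to 10.71 ± 1.30 (n = 5), a log2 difference of −4.42 (SE 0.71, 95% CI −5.94 to −2.90, adjusted p = 0.000663, limma), which is 21.3-fold lower. In Lcn2-/- it fell from 15.10 ± 0.44 (n = 3) to 11.55 ± 1.65 (n = 4), a difference of −3.56 (SE 0.808, 95% CI −5.29 to −1.82, adjusted p = 0.0102), which is 11.8-fold lower. Without Lcn2-/- CCl4 replicate 1, its lowest array, the Lcn2-/- difference was −2.88 (adjusted p = 0.0236), or 7.4-fold lower. The gene stood at rank 15 of 24363 from the most lowered in WT and at rank 27 in Lcn2-/-. In bulk liver, fewer cells of a type and less RNA per cell cannot be told apart. The residual SD within groups was 1.14, above 97.5% of genes, where the median gene had 0.299.

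**Figure D2:**
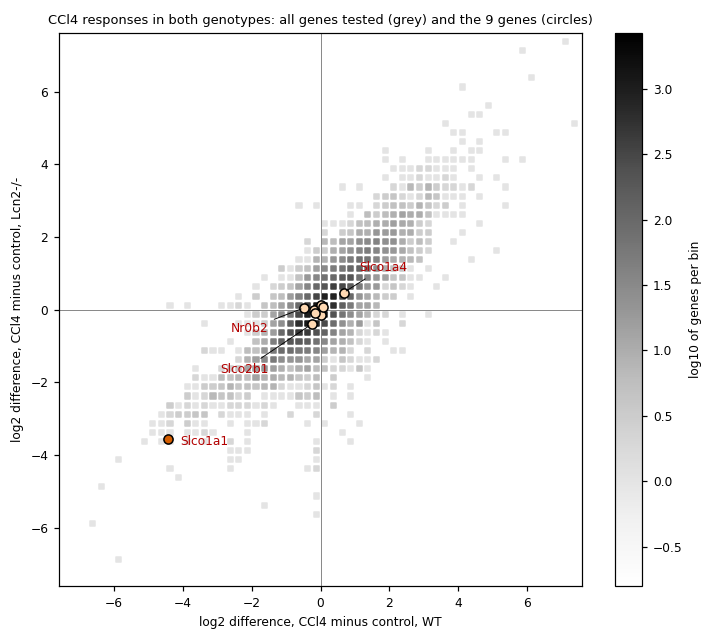
CCl4 response in Lcn2-/- (vertical) against that in WT (horizontal), as log2 differences. All 24363 genes tested are grey squares, darker with more genes, and the 9 genes are circles. Circles are orange where the adjusted p was under 0.05 in WT and pale elsewhere. Slco1a1 lies at the lower left and the other 8 circles lie near the centre, between −0.48 and 0.67 on the horizontal axis.

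The WT difference passed the threshold in 32 of 32 alternative settings, 2 of which rest on the single CCl4 array described next, from −5.73 to −4.09, and the Lcn2-/- difference in 29 of 31, from −5.20 to −2.88. It was lost in Lcn2-/- when the spread was taken from the 2 groups alone (adjusted p = 0.0528) and when the slide entered the fit as a block (−5.20, adjusted p = 0.0783). Within the slide that held WT CCl4 replicate 1 beside the WT controls the WT difference was −5.73, the value that the slide block also gave in WT. It rests on a single CCl4 array, the lowest of its group, and within that slide the spread comes from the controls (SD 0.367), which varied less than the CCl4 arrays (SD 1.30), so no p is given for it. Slide and CCl4 were separated through WT CCl4 replicate 1 only, in both genotypes. The 2 controls that stood apart had the lowest control values of Slco1a1, 0.71 and 0.74 below the mean of the other controls of their genotype. Without both, the differences were −4.59 (adjusted p = 0.00143) and −3.80 (adjusted p = 0.0187).

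Several cell type marker lists moved in the same comparison. Of 7 pericentral hepatocyte markers 3 were lower in each genotype, namely Glul, Oat and Slc1a2, and the log2 summed signal of the list was 19.27 to 19.37 in WT controls and 18.69 to 18.89 in WT CCl4. For Lcn2-/- the sum was 19.27 to 19.35 in controls and 18.54 to 19.04 under CCl4. Of 8 stellate cell and myofibroblast markers 5 were higher in each genotype, and their summed signal went from 14.91 to 16.06 in WT controls to 16.58 to 17.65 under CCl4, and from 14.85 to 14.98 to 16.28 to 16.95 in Lcn2-/-. No gene of these lists was undetected. Their part in the fall of Slco1a1 was not tested.

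The fall did not differ detectably between genotypes. Under CCl4, Slco1a1 was 0.84 higher in Lcn2-/- than in WT (95% CI −0.68 to 2.36, adjusted p = 0.633), and the ranges overlapped. The Lcn2-/- response minus the WT response was 0.86 (95% CI −1.44 to 3.16, adjusted p = 1), an interval wide enough to hold either a weaker or a stronger fall in Lcn2-/-. In controls the genotypes differed by −0.02 (95% CI −1.75 to 1.71).

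Among all genes, those whose deviations from the group means were most like those of Slco1a1 over the 16 arrays were Hsd3b5 (r = 0.974), Cyp7b1 (r = 0.899) and an intergenic transcript on chromosome 13 (r = 0.891). These points share arrays and normalization and carry no test. The genes were picked for this likeness, so arrays lying high or low in all of them follow from the choice. Cyp7b1 is the oxysterol 7-alpha-hydroxylase of the alternative bile acid pathway. Hsd3b5 encodes a steroid-reducing enzyme. In all 3 genes WT CCl4 replicate 3 was the highest WT CCl4 array, Lcn2-/- CCl4 replicates 3 and 4 were the highest of their group, and the 2 controls numbered 3 were the lowest controls. Lcn2-/- CCl4 replicate 1 was the lowest of its group for Slco1a1 and Hsd3b5 but not for Cyp7b1.

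**Figure D3:**
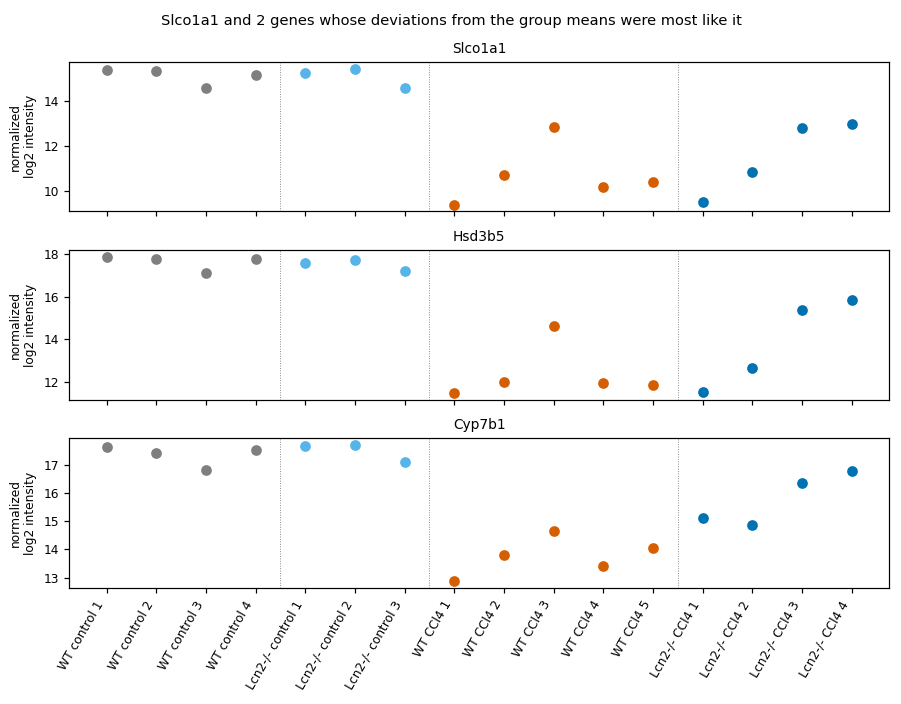
Normalized log2 intensity of Slco1a1, Hsd3b5 and Cyp7b1 on each of the 16 arrays, coloured by group and separated by dotted lines. Each panel has its own scale. WT CCl4 replicate 3 is the highest of its group in all panels, at 12.85, 14.64 and 14.67.

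Slco1a1, Slco1a4 and Slco1b2 are neighbours in 1 cluster of related transporter genes on chromosome 6. The 250 bases before their start sites, from the RefSeq promoter table of GRCm38.p6, are shown 5′ to 3′ on each gene's strand, because 1 of the 3 genes fell and the other 2 did not pass the threshold. Capitals mark matches, on either strand, to AGGTCA (the half-site of many nuclear receptors), TTCNNNGAA (the STAT palindrome) and GTTAAT (an HNF1 half-site).
Slco1a1, chr6:141946963-141947212, minus strand: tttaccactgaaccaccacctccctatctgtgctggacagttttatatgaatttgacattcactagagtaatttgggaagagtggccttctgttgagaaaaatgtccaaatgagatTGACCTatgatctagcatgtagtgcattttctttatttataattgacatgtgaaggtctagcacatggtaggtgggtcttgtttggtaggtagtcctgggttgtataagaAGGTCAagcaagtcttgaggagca
Slco1a4, chr6:141856221-141856470, minus strand: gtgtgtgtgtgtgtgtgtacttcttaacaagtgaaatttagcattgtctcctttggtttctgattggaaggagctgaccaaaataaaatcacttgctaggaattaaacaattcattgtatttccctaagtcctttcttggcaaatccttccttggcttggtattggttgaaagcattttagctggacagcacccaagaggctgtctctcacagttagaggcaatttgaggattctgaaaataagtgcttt
Slco1b2, chr6:141629268-141629517, plus strand: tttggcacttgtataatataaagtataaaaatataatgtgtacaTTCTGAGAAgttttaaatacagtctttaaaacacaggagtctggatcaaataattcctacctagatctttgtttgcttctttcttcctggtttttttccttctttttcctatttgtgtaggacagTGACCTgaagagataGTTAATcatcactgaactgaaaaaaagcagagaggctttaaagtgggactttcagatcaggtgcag

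The Slco1a1 window held 2 AGGTCA matches, at bases 117 to 122 on the opposite strand and 227 to 232, and no match to the other motifs. AGGTCA occurred in 14% of all 32851 windows of this length. The Slco1b2 window held 1 AGGTCA match, a TTCNNNGAA match, a motif found in 7.02% of windows, and a GTTAAT match, found in 6.43%. The Slco1a4 window held none of them. The paired sites AGGTCANTGACCT (0.00609% of windows) and AGGTCANAGGTCA (0.0335%), each of which contains AGGTCA, and CAAGGTC (3.32%), which shares 5 bases with it, were in none of the 3. A match is a run of letters and does not show binding.

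Slco1a4 encodes OATP1A4, a transporter of bile acids and drugs. Its level was 10.18, 10.59, 10.04 and 11.65 on the WT control arrays and 11.87, 10.81, 11.31, 10.89 and 11.55 on the WT CCl4 arrays. On the Lcn2-/- arrays it was 11.92, 11.88 and 10.43 in controls and 11.83, 12.42, 11.74 and 11.55 under CCl4. The groups overlapped in every comparison. The difference with CCl4 was 0.67 in WT (95% CI −0.13 to 1.47, adjusted p = 0.246) and 0.47 in Lcn2-/- (95% CI −0.44 to 1.38, adjusted p = 0.511), opposite in sign to that of its neighbour Slco1a1. Neither passed the threshold. Over the alternative settings the Lcn2-/- difference ran from −0.02 to 1.2, so its sign was not fixed. The controls of the 2 genotypes differed by 0.80 (95% CI −0.11 to 1.71, adjusted p = 0.709). In every same-numbered pair of controls the Lcn2-/- array was higher, at 11.92 against 10.18, 11.88 against 10.59 and 10.43 against 10.04. WT control replicate 4 had no partner. With the replicate number as a block the difference did not pass either. WT control replicate 4 was the highest of its group, and Lcn2-/- control replicate 3 was 1.47 below the other controls of its genotype.

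Slco1b2 encodes OATP1B2, which carries unconjugated bile acids and bilirubin. Its level was 18.41, 18.31, 18.32 and 18.48 on the WT control arrays and 18.27, 18.25, 18.01, 18.29 and 18.22 on the WT CCl4 arrays, which were all lower. It was 18.26, 18.23 and 18.10 in Lcn2-/- controls and 18.09, 18.17, 18.28 and 18.24 in Lcn2-/- CCl4. The WT difference was −0.18 (95% CI −0.36 to 0.01, adjusted p = 0.19) and the Lcn2-/- difference 0.00 (95% CI −0.22 to 0.21, adjusted p = 0.99). Lcn2-/- controls were also all below WT controls, by 0.18 (adjusted p = 0.712).

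Groups that did not overlap were common among all genes. In the WT response 2 of 9 genes did not overlap, Slco1a1 and Slco1b2, against 17.4% of all genes. In the Lcn2-/- response these were Slco1a1 and Slco2b1, 2 of 9 against 24.8%. Between genotypes 1 of 9, Slco1b2, did not overlap in controls, against 9.74%, and 0 of 9 under CCl4, against 5.66%.

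Slco2b1 encodes OATP2B1, a broadly expressed organic anion transporter. Its brighter probe measured 14.77, 14.74, 14.61 and 14.88 in WT controls and 14.69, 14.30, 14.25, 14.50 and 14.73 in WT CCl4, which overlapped. In Lcn2-/- it measured 14.74, 14.65 and 14.87 in controls and 14.08, 14.35, 14.39 and 14.59 under CCl4, with every CCl4 array lower. The differences were −0.26 (95% CI −0.53 to 0.02, adjusted p = 0.195) and −0.40 (95% CI −0.71 to −0.09, adjusted p = 0.0906). The dimmer probe gave −0.17 and −0.24, with overlap in both. With arrays weighted by their quality both differences of the brighter probe passed, at −0.31 (adjusted p = 0.0372) and −0.40 (adjusted p = 0.0145), where 28.8% and 28.6% of all genes passed.

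Slc10a1 encodes NTCP, the main sodium-dependent carrier of conjugated bile acids at the sinusoidal membrane. On its dimmer probe, tested like the other dimmer probes in a fit adjusted over all probes kept and not over genes, the level was 15.56, 15.41, 15.26 and 15.97 in WT controls and 15.76, 15.29, 15.47, 16.10 and 15.58 in WT CCl4. It was 15.63, 15.32 and 15.59 in Lcn2-/- controls and 16, 16, 16.10 and 15.37 in Lcn2-/- CCl4. Both pairs overlapped. The difference was 0.09 in WT (SE 0.195, 95% CI −0.33 to 0.51, adjusted p = 0.799) and 0.35 in Lcn2-/- (SE 0.222, 95% CI −0.12 to 0.83, adjusted p = 0.339). Lcn2-/- CCl4 replicate 4 lay apart from the other 3 of its group. The repeat-like probe, at 18.58 to 18.92 on all arrays, differed by 0.02 in WT (adjusted p = 0.919) and −0.14 in Lcn2-/- (adjusted p = 0.398).

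**Figure D4:**
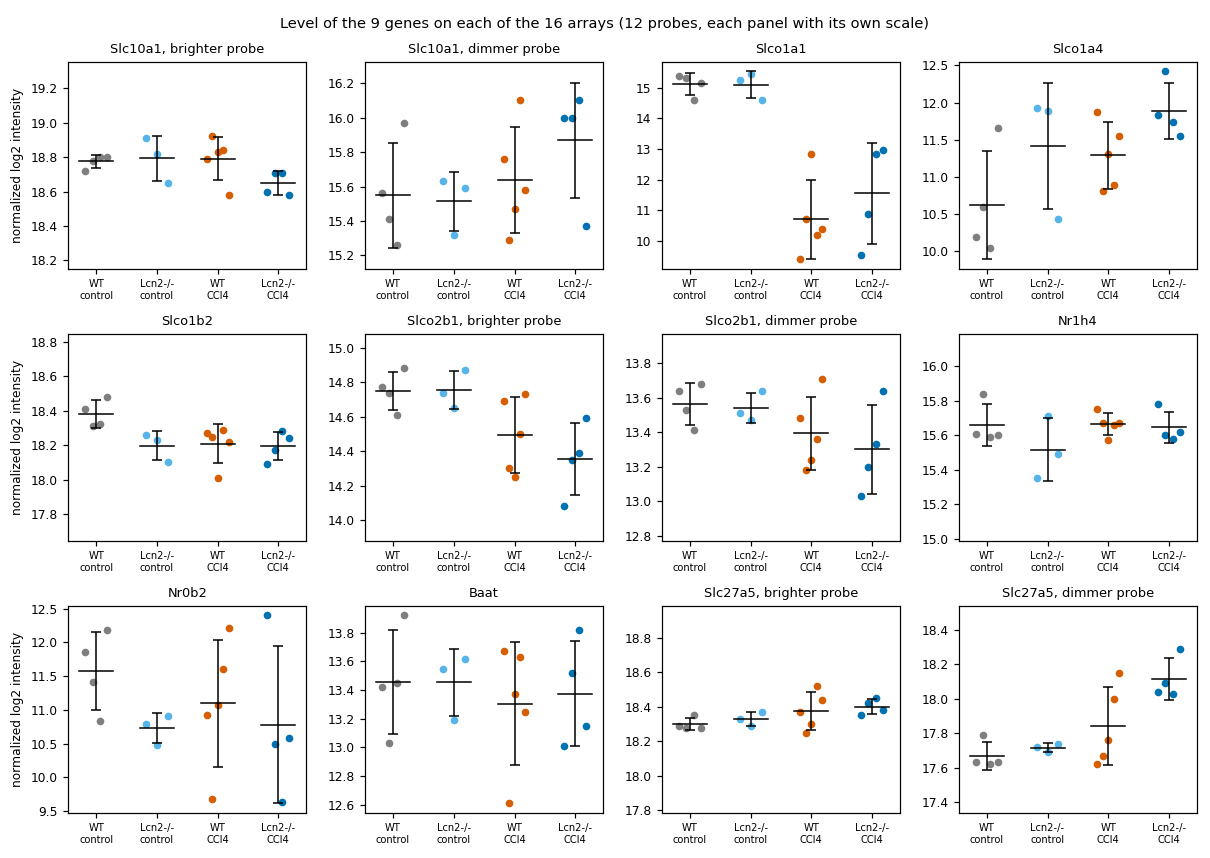
Normalized log2 intensity of the 12 probes of the 9 genes on each array (points) by group, with the group mean (horizontal line) and SD (bars). Each panel has its own scale, spanning at least 1.2. The controls and CCl4 arrays are separated for Slco1a1 in both genotypes, and Nr0b2 ranges from 9.63 to 12.40.

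Nr1h4, which encodes FXR, the bile acid receptor, was among the steadiest of the 9. Its level was 15.61, 15.84, 15.59 and 15.60 in WT controls and 15.75, 15.67, 15.57, 15.66 and 15.67 in WT CCl4. It was 15.35, 15.71 and 15.49 in Lcn2-/- controls and 15.78, 15.60, 15.58 and 15.62 in Lcn2-/- CCl4. All groups overlapped. The WT difference was 0.00 (95% CI −0.20 to 0.21, adjusted p = 0.985) and the Lcn2-/- difference 0.13 (95% CI −0.10 to 0.36, adjusted p = 0.484).

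Nr0b2, which encodes SHP, an FXR target, varied most after Slco1a1, with a residual SD of 0.852, above 93.1% of genes. Its level was 11.86, 11.42, 10.84 and 12.19 in WT controls and 10.93, 9.68, 11.07, 11.60 and 12.22 in WT CCl4. It was 10.79, 10.48 and 10.91 in Lcn2-/- controls and 12.40, 10.5, 9.63 and 10.58 in Lcn2-/- CCl4. The CCl4 groups were the most spread and took in the whole range of the controls. The differences were −0.48 in WT (95% CI −1.61 to 0.66, adjusted p = 0.586) and 0.05 in Lcn2-/- (95% CI −1.24 to 1.34, adjusted p = 0.969), so changes of over 2-fold either way in Lcn2-/- were within the interval. Lcn2-/- controls were lower than WT controls by 0.85 (95% CI −2.15 to 0.44, adjusted p = 0.886), with overlap.

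The conjugating enzymes did not pass in any comparison. Baat, which transfers taurine or glycine to bile acids, measured 13.42, 13.03, 13.45 and 13.92 in WT controls and 13.67, 12.61, 13.37, 13.63 and 13.25 in WT CCl4. The Lcn2-/- values were 13.55, 13.19 and 13.62 in controls and 13.01, 13.52, 13.82 and 13.15 under CCl4. Its groups overlapped throughout. The differences were −0.15 (95% CI −0.66 to 0.36, adjusted p = 0.715) and −0.08 (95% CI −0.66 to 0.50, adjusted p = 0.888).

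Slc27a5 encodes the synthetase that activates bile acids with coenzyme A before conjugation. Its brighter probe measured 18.29, 18.28, 18.35 and 18.28 in WT controls and 18.37, 18.25, 18.30, 18.52 and 18.44 in WT CCl4. The same probe measured 18.33, 18.29 and 18.37 in Lcn2-/- controls and 18.35, 18.42, 18.45 and 18.38 under CCl4. Its residual SD of 0.069 was above only 0.468% of genes. The differences were 0.08 (95% CI −0.09 to 0.24, adjusted p = 0.554) and 0.07 (95% CI −0.12 to 0.26, adjusted p = 0.649). The dimmer probe, with adjustment over probes, gave 0.17 in WT (adjusted p = 0.352) and 0.39 in Lcn2-/- (95% CI 0.11 to 0.68, adjusted p = 0.0709), where 18.04, 18.09, 18.03 and 18.29 under CCl4 were all above 17.72, 17.69 and 17.74 in controls.

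Brightness bears on these values. The probes of Slco1b2 and Slc27a5 and the repeat-like probe of Slc10a1 were among the brightest, with 180, 145 and 32 of 55560 probes above them, and quantile normalization sets the brightest probes of all arrays to nearly the same values. When each array was instead scaled by its 75th percentile, the median of all genes with CCl4 was −0.16 in WT and −0.14 in Lcn2-/-. On that scale Slco1b2 was lower in WT by 0.68 (adjusted p = 0.0059), Slc10a1 (repeat-like probe) by 0.48 (adjusted p = 0.0404) and Slc27a5 by 0.43 (adjusted p = 0.0472), and 4 of the 9 genes passed, against 21% of all genes. In Lcn2-/- the count was 2, against 13.3%, with the repeat-like probe lower by 0.59 (adjusted p = 0.0405). The 75th percentile signal itself was 832 to 1461 on control arrays and 1104 to 2045 on CCl4 arrays.

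The second question was whether loss of Lcn2 changed these genes. Under CCl4, 0 of 9 passed, against 0.649% of all genes, and in controls 0 of 9, against 0.517%. For the Lcn2-/- response minus the WT response it was 0 of 9, against 0.0534%. At an unadjusted p under 0.05 the main probes also gave 0 of 9 in these 3 comparisons, against 13.7%, 8.32% and 3.31% of all genes. Of the 9 differences between genotypes under CCl4, from −0.32 for Nr0b2 to 0.84 for Slco1a1, 5 were below 0, among them Slc10a1 at −0.14 on the repeat-like probe. The dimmer Slc10a1 probe gave 0.23 (95% CI −0.19 to 0.64). The dimmer Slc27a5 probe gave 0.27 (95% CI 0.03 to 0.52, adjusted p = 0.354, limma over probes), with an unadjusted p of 0.033. Weighted by array quality, 1 of 9 passed in controls, Slco1a4, higher in Lcn2-/- by 1.24 (adjusted p = 0.0416), where 5.14% of all genes passed against 0.517% without weights.

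The rest of the bile acid pathway was described from 45 further genes, of which 40 were tested. In the WT response 2 were higher and 5 lower, and in the Lcn2-/- response 1 was higher and 4 were lower. These are 17.5% and 12.5% of the 40, near the 16.7% and 12.1% of all genes. Between genotypes 1 was higher in Lcn2-/- under CCl4, 2.5% of the 40 against 0.649% of all genes, and 0 differed in controls, against 0.517%. The median WT difference of the 40 was −0.09, and −0.03 over all genes. The 5 not tested, Slc51a, Slco1a5, Slco1a6, Slco4c1 and Slco5a1, were well above background on at most 1 array.

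**Figure D5:**
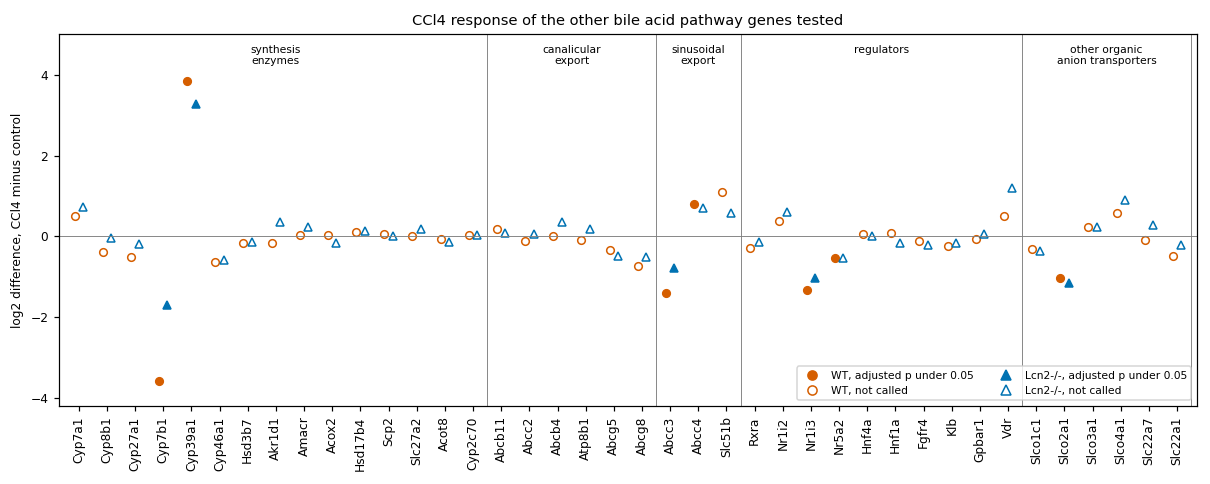
CCl4 minus control, as log2 differences, for the 40 other bile acid pathway genes tested, in WT (circles) and Lcn2-/- (triangles), grouped by role. Filled symbols have an adjusted p under 0.05. Cyp39a1 is the highest filled pair, at 3.84 and 3.28, and Cyp7b1 the lowest, at −3.59 and −1.71.

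Of 15 synthesis enzymes 1 rose and 1 fell. Cyp39a1, the 24-hydroxycholesterol 7-alpha-hydroxylase, rose by 3.84 in WT (adjusted p = 6.29e-05) and 3.28 in Lcn2-/- (adjusted p = 0.000996), with 7.83 to 10.57 on the control arrays and 12.05 to 13.77 on the CCl4 arrays. Its only probe lies in row 1 of the array, at the edge of the printed area. Cyp7b1 was 17.64, 17.42, 16.83 and 17.52 in WT controls and 12.88, 13.82, 14.67, 13.40 and 14.05 in WT CCl4. The Lcn2-/- values were 17.66, 17.69 and 17.08 in controls and 15.11, 14.86, 16.35 and 16.76 under CCl4. No groups of the 3 comparisons overlapped. It fell by 3.59 in WT (adjusted p = 4.27e-05) and by 1.71 in Lcn2-/- (adjusted p = 0.0262), and was 2.01 higher in Lcn2-/- than in WT under CCl4 (adjusted p = 0.0398). The difference between the 2 responses was 1.88 (SE 0.613), with an adjusted p of 1. Cyp7a1, the rate-limiting enzyme of the classical pathway, differed by 0.49 (adjusted p = 0.437) and 0.73 (adjusted p = 0.32). Cyp8b1 differed by −0.39 in WT (adjusted p = 0.605, limma) and −0.05 in Lcn2-/- (adjusted p = 0.965).

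Canalicular export had 0 of 6 genes past the threshold in either response. Among them, the mean of Abcb11 was 17.06 in WT controls and 17.23 in WT CCl4. In Lcn2-/- it was 16.84 in controls and 16.93 under CCl4. Of the 3 sinusoidal exporters tested, Abcc3, which returns conjugates to blood, fell by 1.42 in WT (adjusted p = 0.000368) and by 0.79 in Lcn2-/- (adjusted p = 0.046). Abcc4 rose by 0.79 in WT (adjusted p = 0.0366), with overlap, and differed by 0.71 in Lcn2-/- (adjusted p = 0.108). Of 10 regulators, Nr1i3, which encodes the xenobiotic receptor CAR, fell by 1.33 in WT (adjusted p = 0.00118) and by 1.03 in Lcn2-/- (adjusted p = 0.019). Nr5a2, which encodes LRH-1, a receptor that drives bile acid synthesis genes, fell by 0.55 in WT (adjusted p = 0.0205) and differed by −0.53 in Lcn2-/- (adjusted p = 0.0565). A second, dimmer Nr5a2 probe differed by −0.16 and −0.09. Among 6 other organic anion transporters tested, the prostaglandin carrier Slco2a1 fell by 1.03 in WT (adjusted p = 3.1e-05) and by 1.17 in Lcn2-/- (adjusted p = 5.42e-05).

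The genes most like the other members over the 16 arrays, by the same measure, were Micu3 for Slco1a4 (r = 0.917), Nadsyn1 for Slco2b1 (r = 0.949), Prps2 for Nr1h4 (r = 0.836), Mrpl10 for Nr0b2 (r = 0.948), Tert for Baat (r = 0.881) and Akr7a5 for the dimmer probe of Slc10a1 (r = 0.953). For Slco1b2 it was LOC638230 (r = 0.879), a name of the array's design. For Slc27a5 it was a transcript named by its position on chromosome 18 (r = 0.866). None of these first-ranked genes is a member of the lists used here. Apoa1, one of the hepatocyte markers, stood at rank 3 for Baat (r = 0.854). Each r named first for a gene is the highest among all 24363 genes tested, and none carries a test.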

How the data were processed

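RNA from mouse liver was measured in 16 samples on 1-colour Agilent arrays. The authors labelled it with Cy3, and per the file headers the scanner software was Agilent Feature Extraction 10.7.3.1, with probe positions on mm9. The deposited intensity values are the software's background-subtracted, detrended signal and are not normalized between arrays. Flags of the same software, also deposited, mark spots that are outliers, saturated or well above background. The authors also deposited a log2 table of quantile-normalized values, used as an alternative (r with the values used here 0.9918 to 0.9932 per array).

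Here 3671 of 62976 spots were control spots and left out, and outlier spots were removed. The log2 signal was quantile normalized over the 16 arrays, as the study's methods name, spots of a probe were averaged, and probes detected above background by the flags on 3 or more arrays were kept (33022 of 55681). Saturated gene spots numbered 0. The probe with the highest mean stood for a gene, giving 24363 genes. File accessions were paired with symbols through RefSeq (GRCm38.p6) for 49.8% of gene spots, and the file's name was kept elsewhere.

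Groups came from the sample titles. The test was limma (version 3.58.1, R 4.3.3), fitted once to the 4 groups, with Benjamini-Hochberg adjustment over all genes in each of 5 contrasts. Dimmer probes of a gene were tested in a separate fit to the 33022 probes, adjusted over those probes. Figures and sequences were made with Python 3.11.15. For arrays, depth means how far spots exceed their background, and the number of arrays sets the precision. Replicate numbers were shared between groups. Deviations from group means of same-numbered arrays correlated at 0.23, 0.37 and 0.55 between the controls of the 2 genotypes. In the other comparisons they correlated at −0.22 to 0.25. Arrays with different numbers were not compared, so these values do not show that the numbers pair arrays. In every group but WT CCl4 the number was also the array's column on the slide.

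Named are all 9 genes, and of 45 other pathway genes those past the threshold in any contrast. Cyp7a1, Cyp8b1, Abcb11 and Abcc3 were to be named whatever their values. The genes and lists were chosen with earlier results of these data known. Marker lists of periportal hepatocytes (2 of 6 higher in WT, 1 in Lcn2-/-), cholangiocytes (1 of 6 higher in each), macrophages (2 of 7 higher in each, 1 lower in WT), endothelial cells (1 of 6 higher in each, 1 lower in WT) and ileal enterocytes (Fabp6 was well above background on 1 array and Fgf15 on 0, so neither was tested, and of the other 3, Slc10a2 was higher in WT and Fabp2 lower in each) were also measured. The summed log2 signal of the ileal list was 16.92 to 17.14 in WT controls, 16.52 to 16.91 in WT CCl4, 16.53 to 16.96 in Lcn2-/- controls and 15.93 to 16.16 in Lcn2-/- CCl4. Fabp2 was also lower in Lcn2-/- than in WT under CCl4, by 0.72 (adjusted p = 0.0147). The part of these lists in the results was not tested. Alternatives were scaling, background correction, the authors' table, probe filters, probe choice, variance models, slide, tier and replicate blocks, and leaving out arrays.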

Additional observations from a re-analysis of the deposited data

Results flagged for a closer look

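Within the groups of 4 or 5 arrays, 36 sets of values were examined for an array far from the others, 3 groups for each of 12 probes. The rule flagged 5, where it flags about 1 in 20 sets of independent, normally spread values. These sets share arrays, and the rate over all probes was not computed, so the 5 are not read as an excess. Slco1b2 measured 18.01 on WT CCl4 replicate 3, against 18.22 to 18.29 on the others of its group. Nr1h4 measured 15.84 on WT control replicate 2, against 15.59 to 15.61. Slc27a5 measured 18.35 on WT control replicate 3, against 18.28 to 18.29, and its dimmer probe 17.79 on WT control replicate 2, against 17.62 to 17.63. The dimmer probe of Slc10a1 measured 15.37 on Lcn2-/- CCl4 replicate 4, against 16 to 16.10.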

How the results depend on the processing

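Slco1a1 stayed lower under every alternative run in both genotypes, and passed the threshold in 32 of 32 in WT and 29 of 31 in Lcn2-/-. Of the 32, 2 (1 slide only and the slide as a fixed block, both −5.73) rest on 1 WT CCl4 array and say nothing of stability. The number of the 9 genes past the threshold was 1 in each response, against 16.7% of all genes in WT and 12.1% in Lcn2-/-. Scaling by the 75th percentile gave 4 in WT and 2 in Lcn2-/-, against 21% and 13.3% of all genes. It put Slc10a1 (repeat-like probe) at −0.48 and Slc27a5 at −0.43 in WT, both reversed. It also took the share of higher genes among all genes called from 48.3% to 30.8% in WT and from 54% to 36.5% in Lcn2-/-. Array weights gave 2, 2 and, between control genotypes, 1, against 28.8%, 28.6% and 5.14% of all genes. Only the 2 groups compared gave 0 in Lcn2-/-, and the slide as a fixed block 0. The count over all 24363 genes also fell there, from 2958 to 1751 and 426. Leaving out single arrays gave 1 to 1 in each response and 0 to 0 elsewhere. Over all genes it gave 2485 to 5071 in WT and 1680 to 3194 in Lcn2-/-. With the replicate block Slco1a1 differed by −4.33 (adjusted p = 0.00474) and −3.65 (adjusted p = 0.0213), no call among the 9 changed, and under CCl4 87 genes differed between genotypes against 158 without it.

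Differences called neither as reported nor under the alternative changed sign in 14 of 288 values in WT, 21 of 279 in Lcn2-/-, 19 of 288 under CCl4, 26 of 288 in controls and 24 of 270 for the difference of responses. Over all genes the count called ranged from 704 (1 slide only) to 7007 (array weights) against 4063 in WT, from 426 (slide block) to 6970 (array weights) against 2958 in Lcn2-/-, from 72 (without Lcn2-/- CCl4 replicate 3) to 321 against 158 under CCl4, from 48 (tier block) to 1252 against 126 in controls, and from 3 (the authors' table) to 19 against 13 for the difference of responses, the highest always with array weights. The causes were not tested. Genotype and tier coincide except for WT CCl4 replicate 1. Responses in the brightest probes depend on the scaling.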
